A study of Arabidopsis thaliana with 3 samples.

Results

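Ribosomal protein genes were taken as the protein-coding genes whose product in the TAIR10.1 annotation begins with the words ribosomal protein. The rule found 281 of the 27444 protein-coding genes on chromosomes 1 to 5, of which 171 carried a name of the large subunit (L), 102 a name of the small subunit (S) and 8 neither. The rule reads names only, so it also takes in genes of related protein families, such as LOS1, which encodes the translation elongation factor eEF2. Without the products that name an elongation factor, a Clp protease, a tRNA synthetase, a methyltransferase or an RNase, 267 genes were left. Whole-genome bisulfite sequencing (BS-seq) had been done on leaves of mature Arabidopsis thaliana plants (Col-0), with 2 libraries of an H3.3 knockdown (h3.3kd replicates 1 and 2) and 1 library of wild type (WT). In h3.3kd plants, T-DNA insertions disrupted the H3.3 genes HTR4 and HTR8, and an artificial microRNA expressed from the HTR5 promoter targeted HTR5, the remaining H3.3 gene. The constructs had been put into plants that segregated from an htr4/+;htr8/htr8 parent, so that methylation differences inherited along this shared ancestry and differences made by the knockdown cannot be told apart. Which of the independent transgenic lines a given h3.3kd replicate came from is not stated in the labels. Leaves hold many cell types, and a methylation level is an average over them.

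Ribosomal proteins fold around the ribosomal RNAs to build the small and the large subunit of the ribosome. Plant cells have ribosomes in the cytosol, in plastids and in mitochondria, and most proteins of all of these are encoded in the nucleus. Cytosolic ribosomal proteins are typically made from small families of near-identical, highly transcribed genes, and those of organelles more often from single genes. Many Arabidopsis genes carry gene body methylation, which lies in CG dinucleotides, avoids the start of the gene and is copied after replication by the methyltransferase MET1. CHG and CHH methylation, where H is A, C or T, is in contrast typical of silenced sequences. The histone variant H3.3 enters chromatin independently of replication and is known to be abundant toward the 3′ ends of transcribed genes.

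The changes in ribosomal protein genes were concentrated in short stretches, of which 6 are shown because they hold clear differences inside coding sequence or introns. Each is read 5′ to 3′ on the strand of the gene from the RefSeq TAIR10.1 genome, with CG dinucleotides in capitals. RPS9 (AT1G74970, plastid ribosomal protein S9) is shown from the minus strand of chr1:28158001-28158100, 48 bases of coding sequence and 52 of intron. LOS1 (AT1G56070) is shown from the minus strand of chr1:20968501-20968600, all coding. AT3G22980 (ribosomal protein S5/elongation factor G family) is shown from the minus strand of chr3:8161101-8161300, all coding, and AT4G23620 (L25/Gln-tRNA synthetase anti-codon-binding domain) from the minus strand of chr4:12315301-12315400, all intron. For the gains, RPL5B (AT5G39740, cytosolic L5) is shown from the plus strand of chr5:15904101-15904200, with 78 coding bases, and AT2G27535 (L10A family) from the minus strand of chr2:11765701-11765800, with 63 coding bases.
RPS9: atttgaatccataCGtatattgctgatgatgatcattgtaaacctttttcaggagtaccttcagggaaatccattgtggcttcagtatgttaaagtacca
LOS1: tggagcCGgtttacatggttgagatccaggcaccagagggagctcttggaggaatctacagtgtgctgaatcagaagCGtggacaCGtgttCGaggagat
AT3G22980: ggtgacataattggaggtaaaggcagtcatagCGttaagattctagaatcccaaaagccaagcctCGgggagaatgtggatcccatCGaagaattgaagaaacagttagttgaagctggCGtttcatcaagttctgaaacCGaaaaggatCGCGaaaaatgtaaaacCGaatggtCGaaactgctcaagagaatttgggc
AT4G23620: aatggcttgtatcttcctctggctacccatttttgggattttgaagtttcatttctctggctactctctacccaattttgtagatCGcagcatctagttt
RPL5B: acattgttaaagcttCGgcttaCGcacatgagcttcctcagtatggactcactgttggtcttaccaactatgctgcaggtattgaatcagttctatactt
AT2G27535: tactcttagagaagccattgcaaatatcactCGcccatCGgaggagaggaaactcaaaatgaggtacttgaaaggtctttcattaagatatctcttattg

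The single CG dyad of the RPS9 stretch was read as methylated in 0% of 36 calls in h3.3kd 1 and 0% of 40 calls in h3.3kd 2, against 76.1% of 46 calls in WT. By a limit of 3 counts, the zeros in h3.3kd allow levels of up to 8.33% and 7.50%, for counting error only, and the zeros given for the other dyads allow between 6.67% and 16.7%. The single dyad of the AT4G23620 intron behaved alike, with 2.08% and 0% in the h3.3kd libraries and 89.2% in WT. The LOS1 stretch has 4 dyads. The first was at 0% in every library, and the others were at 4.35%, 0% and 8.70% in h3.3kd 1 and at 3.85%, 0% and 0% in h3.3kd 2, against 63.6%, 69.6% and 87.0% in WT. In AT3G22980, neighbouring dyads differed within a stretch: the third of 9 was at 0% in both h3.3kd libraries and 100% in WT, while the fifth was at 100% and 94.1% in h3.3kd and 90.9% in WT. The sixth dyad was at 87.5% in h3.3kd 1, 2.78% in h3.3kd 2 and 100% in WT, so the 2 h3.3kd libraries also differed from each other here. In RPL5B the first dyad was at 89.2% and 91.7% in the h3.3kd libraries and 0% in WT, and the second at 85.3% and 64.1% in h3.3kd and 0% in WT. The dyads of AT2G27535 were at 63.8% and 77.4% in h3.3kd 1 and at 46.8% and 71.7% in h3.3kd 2, against 0% and 6.0% in WT.

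The libraries held 822515332 (h3.3kd 1), 842326850 (h3.3kd 2) and 839704204 (WT) calls, or 19.2, 19.7 and 19.6 calls per cytosine of the nuclear genome. A methylation level is the number of C calls over all C and T calls. A gene was tested where it had at least 10 CG cytosines and 100 CG calls in every library, which 276 ribosomal protein genes and 26970 genes in all met. The tested ribosomal protein genes had between 271 and 4908 CG calls per library. The other 5 had 0 calls in every library. AT1G58684, AT1G58983 and AT1G59359 are identical copies of an S5 family gene over the length of the shortest, and the whole bodies of AT2G07675 and AT2G07696 on chromosome 2 also occur in the mitochondrial genome. WT was not replicated, so that Fisher's exact tests on the calls compare libraries and not conditions, and an exact permutation test of 2 libraries against 1 cannot go below p = 0.33. Replicate error could be taken only from the 2 h3.3kd libraries, which per the study's methods came from separate transgenic lines. Read depth of ribosomal protein genes relative to WT was 0.830 to 1.21 in h3.3kd 1 and 0.832 to 1.18 in h3.3kd 2.

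Most ribosomal protein genes had almost no methylation, in h3.3kd as in WT. The median CG level of the tested genes was 0.578% in h3.3kd 1, 0.606% in h3.3kd 2 and 0.634% in WT. Summed CHH levels over the ribosomal protein gene bodies were close to this, at 0.575%, 0.585% and 0.598%. CG levels this low may therefore be cytosines that bisulfite failed to convert, and differences between them are not read as methylation. Over all tested genes the medians were 4.502%, 4.09% and 5.18%. In WT, 195 ribosomal protein genes (70.7%) were under 2%, against 42.2% of all genes, and 39 (14.1%) were at 10% or more, against 41.1%. Summed over the 281 gene bodies the CG level was 4.74% in h3.3kd 1 and 4.67% in h3.3kd 2, or 4.70% ± 0.0484 (SD, n = 2), against 5.36% in WT. The difference of -0.66 percentage points was larger than that between the h3.3kd libraries (-0.0685 points) and came to -12.3% of the WT level. Over all protein-coding genes it was -1.90 points, or -11.4% of the WT level. The large-subunit genes were at 4.63% ± 0.0633 in h3.3kd and 5.08% in WT, the small-subunit genes at 5.13% ± 0.0293 in h3.3kd and 6.17% in WT (SD, n = 2).

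The share of the loss was like that of all genes, but its size in points depended on how it was averaged. The mean over genes of their own levels differed by -0.37 points, since it gives the many genes near 0 the same weight. AT3G28900, described below, also weighed on it, and without this gene the summed difference was -0.57 points. CHG methylation was 0.721% and 0.711% in the h3.3kd libraries, or 0.716% ± 0.00756 (SD, n = 2), and 0.789% in WT. Without AT3G28900 the CHG difference of -0.0725 points was -0.0153 points. CHH methylation was 0.580% ± 0.00654 in h3.3kd (SD, n = 2) and 0.598% in WT.

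**Figure D1:**
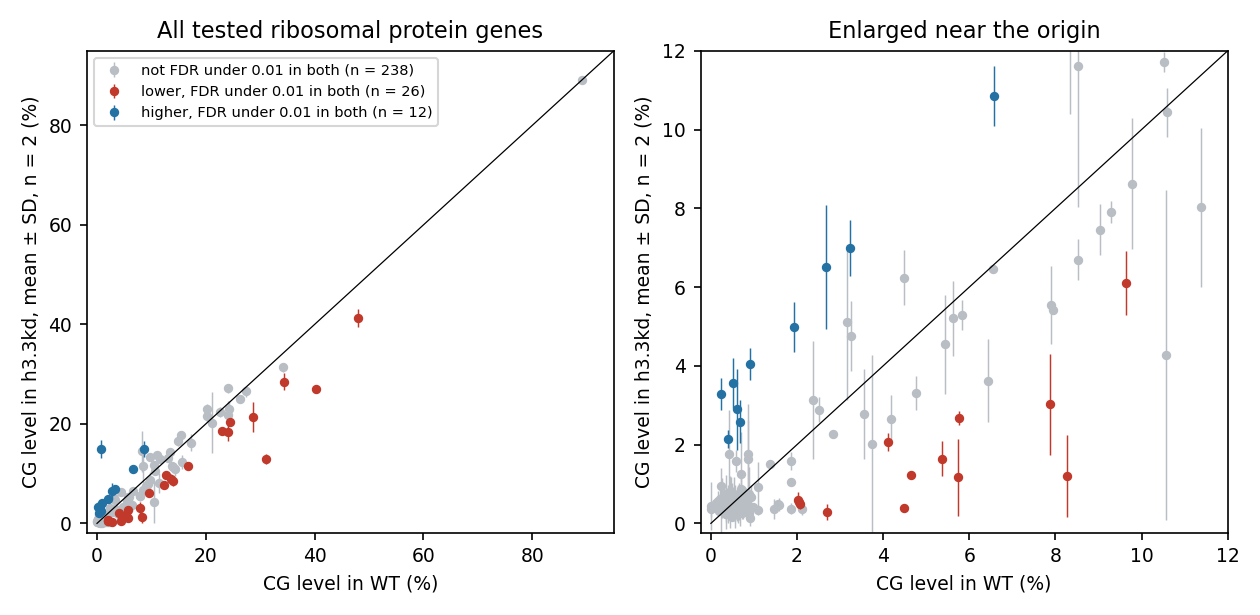
CG level of each tested ribosomal protein gene in h3.3kd (y axis, mean of 2 libraries with SD) against WT (x axis), both in percent, for all 276 genes on the left and enlarged near the origin on the right. Red points (26 genes) were lower than WT and blue points (12 genes) higher, by an FDR under 0.01 in each h3.3kd library, and most genes sit near the origin.

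Part of the low methylation went with gene length, since long genes are more often methylated. Ribosomal protein genes had a median length of 1591 bp, against 2078 bp for all genes. Of those under 1 kb, 32 of 32 (100%) were under 2% CG in WT, against 71.4% of all genes of that length. Between 1 and 1.5 kb the shares were 84.2% and 69.4%, and between 1.5 and 2 kb they were 69.4% and 55.4%. Between 2 and 3 kb, 15 of 43 ribosomal protein genes (34.9%) were under 2%, against 32.0% of all genes. From 3 kb upward 2 of 8 (25.0%) were, against 12.3%. These 8 include LOS1, AT3G22980, MEE5 (AT1G06220) and AT3G12915, all of the S5/elongation factor G family, and AT3G12915 is 1 of the 2. This class is thus too small and mixed to show whether the gap shrinks with length. These are shares without a test, and expression, which was not measured in these libraries, was not matched.

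**Figure D2:**
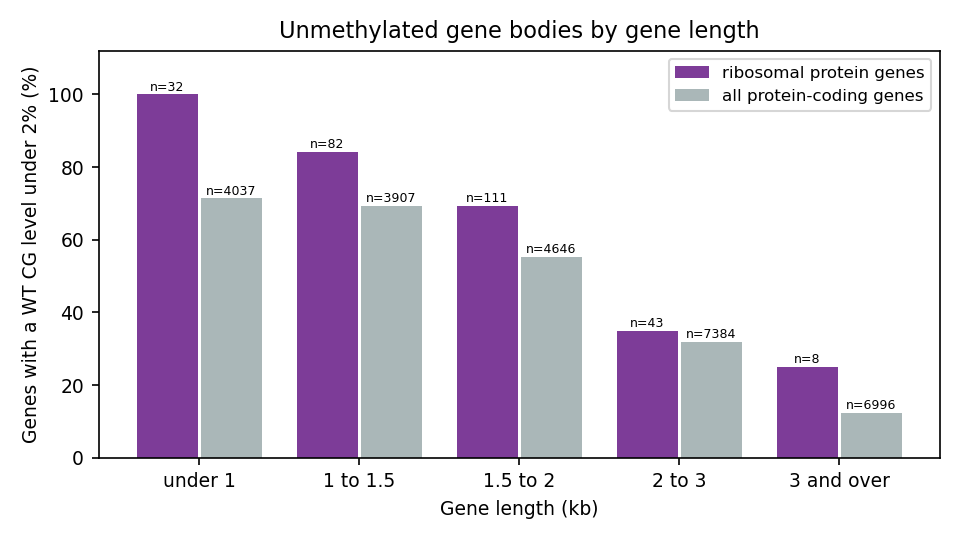
Share of tested genes with a WT CG level under 2% (y axis, percent) in 5 classes of gene length (x axis, kb), for ribosomal protein genes (left bar of each pair) and all protein-coding genes (right bar), with the number of genes above each bar. The shares lie closest between 2 and 3 kb, at 34.9% and 32.0%.

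Genes with close copies had lower pooled levels than genes without. By protein sequence (at least 70% identity over at least 70% of the longer protein), 178 of the 281 genes fell into 68 families and 103 had no such copy. This split was chosen after the values had been seen. Genes with a copy were at 3.38% ± 0.0683 in h3.3kd and 3.78% in WT, and genes without at 6.56% ± 0.0215 in h3.3kd and 7.58% in WT (SD, n = 2). In WT, 135 of 175 tested genes with a copy (77.1%) were under 2%, against 60 of 101 (59.4%) without. In 40 families no tested gene reached 2% in WT, and in 15 at least 1 reached 10%. Copies could differ widely: among the L30e genes, AT1G36240 was at 89.3% and 89.1% in the h3.3kd libraries and 89.1% in WT, while the lowest of the 3 was at 0.519% in WT. Such levels rest on reads that the aligner could place, and reads from near-identical stretches are uncertain.

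A gene was called changed when both h3.3kd libraries differed from WT by at least 10 points in the same direction at a Benjamini-Hochberg FDR under 0.01, adjusted over all 26970 genes. By this rule 2 ribosomal protein genes of 276 were lower, AT3G28900 and AT3G22980, where 1.44% of all tested genes were lower. By the same rule 1 gene, AT2G27535, was higher, where 0.304% of all tested genes were. Between h3.3kd 2 and h3.3kd 1 themselves, 0 ribosomal protein genes passed the same 10-point rule in either direction (0.293% of all genes were lower and 0.145% higher in h3.3kd 2). With no minimum size, 26 ribosomal protein genes were lower in both h3.3kd libraries, a smaller share than the 19.0% of all genes, at 9.42%. In the other direction 12 were higher, 4.35% against 4.84% of all genes. Of the 26, 15 were large-subunit genes (8.77% of 171 tested) and 10 small-subunit genes (10.3% of 97 tested). Of the 12, 11 were large-subunit genes (6.43%) and 1 a small-subunit gene (1.03%). Both subunits were thus below the 19.0% of all genes that were lower, and the subunits were not tested against each other.

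AT3G28900 encodes a protein of the L34e superfamily (chromosome 3, 10902003 to 10904458, minus strand). Its CG level was 12.1% in h3.3kd 1 and 13.6% in h3.3kd 2, against 31.0% in WT (95% Wilson interval 29.1 to 33.1%). The differences were -18.9 and -17.5 points (FDR 3.07e-43 and 5.83e-39, Fisher's exact test). It was also the only called gene with CHG methylation, at 3.15% and 3.32% in the h3.3kd libraries and 13.2% in WT. The loss lay at the 3′ end, where a separate gene on the plus strand, AT3G28899 (uncharacterized protein, 10902184 to 10902515), overlaps its untranslated part. Inside the overlap the CG level was 0.690% and 1.08% in the h3.3kd libraries and 57.9% in WT, and the CHG level 0.216% and 0.494% in h3.3kd and 34.5% in WT. Outside the overlap the CG level was 14.4% and 16.4% in h3.3kd and 24.8% in WT, and with the bases shared with other genes left out AT3G28900 missed the 10-point rule in h3.3kd 2 (-8.44 points). Reads of the 2 genes cannot be told apart there. In all, 71 ribosomal protein genes overlapped another protein-coding gene.

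AT3G22980 is a gene of the S5/elongation factor G family, whose proteins bind GTP and the ribosome rather than form part of it (chromosome 3, 8160075 to 8163788, minus strand). Its CG level was 27.2% in h3.3kd 1 and 26.8% in h3.3kd 2, against 40.2% in WT (interval 38.7 to 41.7%), from 4908, 4821 and 4227 calls. The h3.3kd libraries thus lay 13.0 and 13.4 points under WT (FDR 2.38e-37 and 3.07e-39, Fisher's exact test) and differed by -0.34 points from each other. Over the last 30% of the gene the level was 33.3% and 30.2% in h3.3kd and 57.4% in WT. CHG methylation stayed low, at 0.384% and 0.499% in h3.3kd and 0.412% in WT. Among the genes of the same product, LOS1 was lower in both libraries, at 1.33% and 1.96% in h3.3kd and 5.36% in WT. MEE5 (AT1G06220), which encodes a component of the spliceosome, was at 10.9% and 11.98% in h3.3kd and 13.8% in WT and passed the FDR only in h3.3kd 1. AT3G12915 (1.08% and 1.04% in h3.3kd, 1.86% in WT) and AT5G25230 (0.899% and 0.501% in h3.3kd, 0.403% in WT) passed in neither.

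AT2G27535 (L10A family, chromosome 2, 11765281 to 11766144, minus strand) was at 13.7% in h3.3kd 1 and 16.3% in h3.3kd 2, against 0.707% in WT (interval 0.275 to 1.80%). The rise of 13.0 and 15.6 points (FDR 2.80e-19 and 1.57e-23, Fisher's exact test) rested on a gene of 28 CG cytosines, and the stretch printed above held its 1 called region. No CHG methylation came with it, at 0.800% and 0.455% in h3.3kd and 0% of calls in WT.

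The other large drops were smaller than 10 points in at least 1 library. AT4G10450, an L6 family gene, was at 0.457% and 1.94% in h3.3kd and 8.26% in WT, so that little of its methylation was left. The loss lay in its last 30%, at 1.31% and 5.42% in h3.3kd and 35.4% in WT. Of its copies, AT1G33120 was at 1.86% and 0.479% in h3.3kd and 5.73% in WT and also fell, in a region of which 47 bp lay in its untranslated end. PGY2 (AT1G33140), whose predicted protein is 100% identical to that of AT1G33120, was in contrast at 0.421% and 0.135% in h3.3kd and 0.653% in WT. The first 30% of AT1G33120 and of PGY2 had no CG calls in any library, so these levels come from the remaining part of each gene. The plastid L6 gene emb2394 was at 0.393% and 0.655% in h3.3kd and 0.467% in WT. RPL9, the plastid L9 gene, was highly methylated, at 42.5% and 40.01% in h3.3kd and 48.0% in WT.

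In the same order of the smaller difference came AT3G01790 (L13 family), at 19.3% and 23.5% in h3.3kd and 28.8% in WT, and AT1G64880 (S5 family), at 11.7% and 11.4% in h3.3kd and 16.7% in WT. AT5G02740 (S24e family) was at 9.14% and 7.77% in h3.3kd and 13.9% in WT, and AT2G20060 (L4/L1 family) at 29.7% and 27.3% in h3.3kd and 34.3% in WT. RPS1, which encodes the S1 protein of plastid ribosomes, was at 17.0% and 19.7% in h3.3kd and 24.1% in WT, and AT4G23620 at 18.7% and 18.6% in h3.3kd and 23.0% in WT. In each of these 10 genes both h3.3kd libraries were below WT, and in all but AT3G01790, RPL9, RPS1 and AT2G20060 the gap between the h3.3kd libraries was under 2 points.

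The other rises named are the largest among genes with an FDR under 0.01 in each h3.3kd library, and they were small. AT1G68660 (17.4% and 11.6% in h3.3kd, 8.33% in WT) and AT2G40010 (13.8% and 12.9% in h3.3kd, 9.79% in WT) differed as much but missed this limit in h3.3kd 2, with FDRs of 0.0465 and 0.0132 by Fisher's exact test. AT3G06040 (L12/ClpS family) was at 16.0% and 13.7% in h3.3kd and 8.67% in WT. AT5G53070 (L9/RNase H1) was at 11.4% and 10.3% in h3.3kd and 6.57% in WT, and AT5G45590 (L35) at 7.50% and 6.49% in h3.3kd and 3.24% in WT. AT3G58660 (L1p/L10e family) was at 4.33% and 3.76% in h3.3kd and 0.911% in WT. These genes started from low WT levels, and AT5G53070 and AT5G45590 held a lost as well as a gained stretch.

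**Figure D3:**
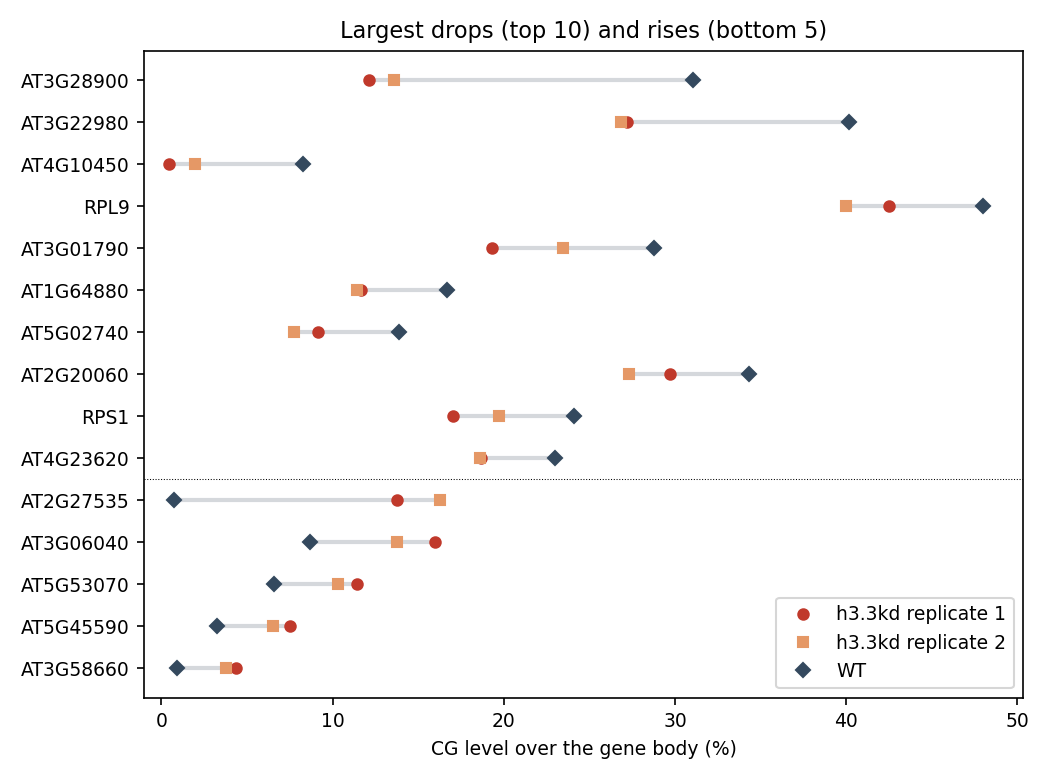
CG level over the gene body (x axis, percent) in h3.3kd 1, h3.3kd 2 and WT (symbols) for the 10 ribosomal protein genes with the largest drop, above the dotted line, and the 5 with the largest rise, below it, among genes with an FDR under 0.01 in each h3.3kd library, ranked by whichever library differed less from WT. Both h3.3kd symbols lie on the same side of WT in all 15 genes, because the ranking required it.

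Other genes of the L34e superfamily, to which AT3G28900 belongs, differed in direction. AT3G06180 was lower in h3.3kd, at 9.17% and 10.2% against 12.8% in WT, while AT5G15260 was higher, at 2.998% and 3.57% against 0.230% in WT. AT1G26880, AT3G01170 and AT5G19025 were under 0.8% in every library and passed the FDR in neither h3.3kd library. The 5 most methylated ribosomal protein genes in WT were AT1G36240, RPL9, AT3G22980, AT2G20060 and AT3G18240 (S24/S35), the last at 32.0% and 30.7% in h3.3kd and 34.2% in WT. AT1G36240 has 16 CG cytosines and carried CHG methylation too, at 46.9% and 46.3% in h3.3kd and 44.5% in WT. It and AT3G28900 were the only ribosomal protein genes with a pooled CHG level of at least 5%.

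Compared with all genes in the same class of WT level, ribosomal protein genes differed from WT by less in some classes and by more in others. To avoid choosing genes on the same calls, classes were set by the WT level at every other CG dyad, and levels were read at the dyads between. A read can cover neighbouring dyads, so the 2 sets of calls are not independent. Ribosomal protein genes under 2% (195 genes) differed by a mean of 0.0898 points, against 0.123 points for all genes of that class, and those of 2 to 10% (41 genes) by -0.64 points, against -0.63 points. Both classes were thus close to all genes. Those of 10 to 20% (25 genes) differed by a mean of -1.36 points, against -1.86 points for all genes of that class, and those of 20 to 30% (7 genes) by -2.28 points, against -3.01 points. The 8 genes of 30% or more differed by -6.70 points, against -3.46 points for all genes, with values between -17.0 and -1.21 points. This class was not alike, since its mean WT level was 39.9% in ribosomal protein genes and 50.6% in all genes. The classes were also not filtered by CHG level, and 5.63% of all tested genes had a pooled CHG level of at least 5%. Between the h3.3kd libraries the means differed by 0.0698, -0.29, -0.50, -0.61 and -0.51 points in these 5 classes. With 8 genes, no test of this contrast was made.

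Along the gene, the first 30% held little methylation, and in WT the middle was slightly above the last 30%. The loss lay mainly in the last 30%. In 248 ribosomal protein genes of at least 1 kb, the first 30% were at 0.749% ± 0.0202 in h3.3kd and 0.842% in WT, and the middle at 9.60% ± 0.255 in h3.3kd and 9.89% in WT (SD, n = 2). The last 30% were at 7.03% ± 0.0176 in h3.3kd and 9.35% in WT. This difference of -2.32 points, or -24.8% of the WT level, exceeded the 0.0249 points between the h3.3kd libraries, whereas the middle difference of -0.28 points was smaller than the h3.3kd gap of -0.36 points. Over all 23067 genes of at least 1 kb the differences were -0.44, -2.08 and -3.86 points, the last being -18.9% of the WT level. Without AT3G28900 the difference over the last 30% was -1.95 points.

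**Figure D4:**
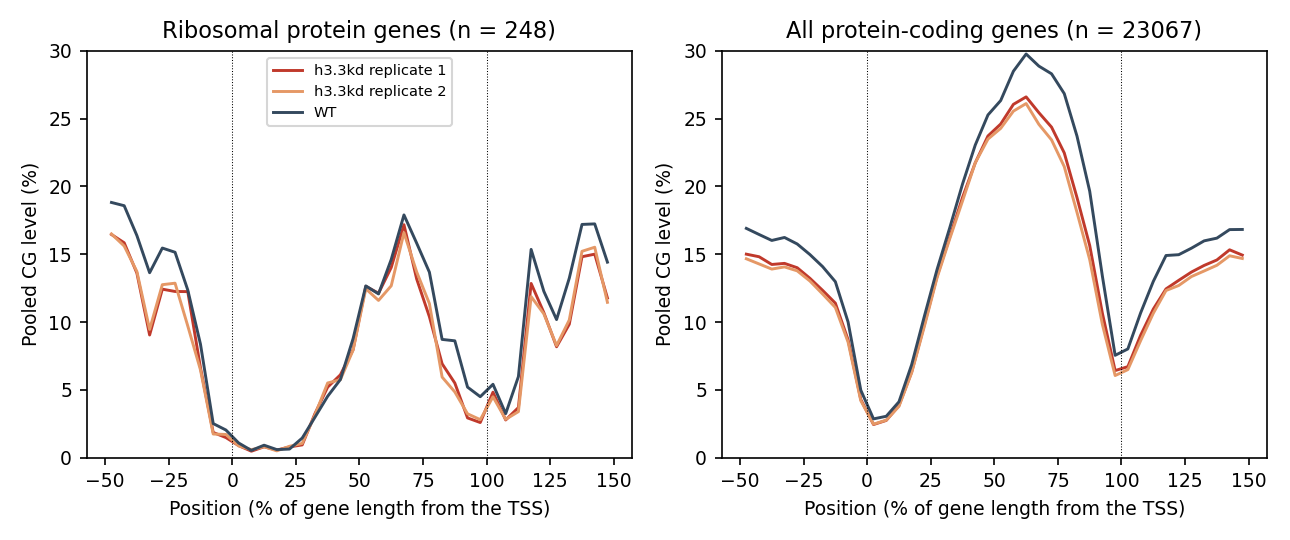
Pooled CG level (y axis, percent) in bins of 5% of gene length from 50% upstream to 50% downstream (x axis, percent of gene length from the transcription start site) in h3.3kd 1, h3.3kd 2 and WT, for 248 ribosomal protein genes (left) and 23067 protein-coding genes (right) of at least 1 kb. Inside ribosomal protein genes the h3.3kd lines run close to WT up to about the middle and below it over the last bins, for example 5.51% and 4.86% against 8.62% in the 18th of 20 bins, and in the upstream flank they are also below WT, for example 9.05% and 9.46% against 13.6% in the 4th bin.

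The coding sequence of ribosomal protein genes was at 6.62% ± 0.0791 in h3.3kd and 7.60% in WT. Untranslated exons were at 1.75% ± 0.00445 in h3.3kd and 2.48% in WT, and introns at 4.42% ± 0.0221 in h3.3kd and 4.47% in WT (SD, n = 2). The intron difference of -0.0559 points compares with -2.09 points for the introns of all genes, which were at 19.3% in WT.

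CG dyads, the paired CG of both strands, mostly kept their state. Among 10535 dyads covered by 10 calls or more in each library, in genes with a pooled CHG level under 5%, 542 were methylated (60% or more) in WT. Of these, 356 (65.7%) stayed methylated in both h3.3kd libraries, against 72.3% of the methylated dyads of all genes, and 52 (9.59%) were under 10% in both, against 8.32%. Only 6 were under 10% in h3.3kd 1 but still methylated in h3.3kd 2, and 15 the reverse. Of 9877 dyads unmethylated in WT, 31 (0.314%) were methylated in both h3.3kd libraries, against 0.883% over all genes.

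Differentially methylated regions (DMRs) were built from 100-bp tiles with at least 20 CG calls per library. A tile counted where each h3.3kd library differed from WT by 20 points or more, at an FDR under 0.01, and tiles within 200 bp were joined. Of 276 ribosomal protein genes that had a tested tile, 37 (13.4%) overlapped a hypo-CG-DMR, against 34.4% of all genes. A hyper-CG-DMR lay in 25 (9.06%), against 21.7% of all genes, and 9 genes held both kinds. The same criteria between h3.3kd 2 and h3.3kd 1 gave a region lower in h3.3kd 2 in 19 of the genes (6.88%, all genes 19.0%) and a higher one in 10 (3.62%, all genes 13.5%).

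The 44 hypo-CG-DMRs were short, 31 of them a single tile, and their median levels were 2.91% and 5.61% in the h3.3kd libraries and 57.8% in WT. The longest joined 6 tiles, in AT3G28900, and those of 3 tiles lay in AT3G22980, AT5G02740 and RPS1. In AT3G22980 this region, all coding, was at 22.2% and 18.0% in h3.3kd and 55.1% in WT, in RPS1 at 21.2% and 26.5% in h3.3kd and 56.5% in WT, and in AT5G02740 at 18.9% and 15.6% in h3.3kd and 31.7% in WT. The 28 hyper-CG-DMRs had medians of 66.0% and 57.0% in h3.3kd and 1.10% in WT, and 26 were a single tile. The 2 of 2 tiles were in AT3G09200 (L10 family), at 24.3% and 31.7% in h3.3kd and 0% of 124 calls in WT, and in AT5G45590, at 29.3% and 33.0% in h3.3kd and 1.07% in WT.

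Losses sat nearer the 3′ end than gains, and the tiles that could be lost also lay nearer it than those that could be gained. The centre of a hypo-CG-DMR lay at a median of 71.0% of the gene, with 22 of 44 in the last 30% and 0 in the first, and that of a hyper-CG-DMR at 53.5%, with 7 of 28 in the last 30% and 1 in the first. A tile can be lost only where it is methylated. In ribosomal protein genes, tiles at 20% or more in WT lay at a median of 65.7% of the gene, with 38.5% in the last 30%. Tiles at 80% or less in WT lay at a median of 47.6%, with 29.4% in the last 30%. Of 278 tiles in ribosomal protein genes at 20% or more in WT, 62 (22.3%) were lost, against 17.6% over all genes, and in the last 30% of the gene 32.7% were, against 26.4%. Of 3617 tiles at 80% or less in WT, 30 (0.829%) were gained, against 1.81%. The smaller number of ribosomal protein genes with a loss therefore stood beside a share of lost tiles per methylated tile that was not smaller than that of all genes. Unlike the dyads above, these tiles were not filtered by CHG level. A pooled CHG level of at least 5% was found in 1517 of all tested genes but in only 2 ribosomal protein genes, so the 2 shares are not matched in this. The lost tiles of AT3G28900, which carried CHG methylation and lay at the end that overlaps AT3G28899, were counted in both shares. The shares were not taken again without this gene.

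**Figure D5:**
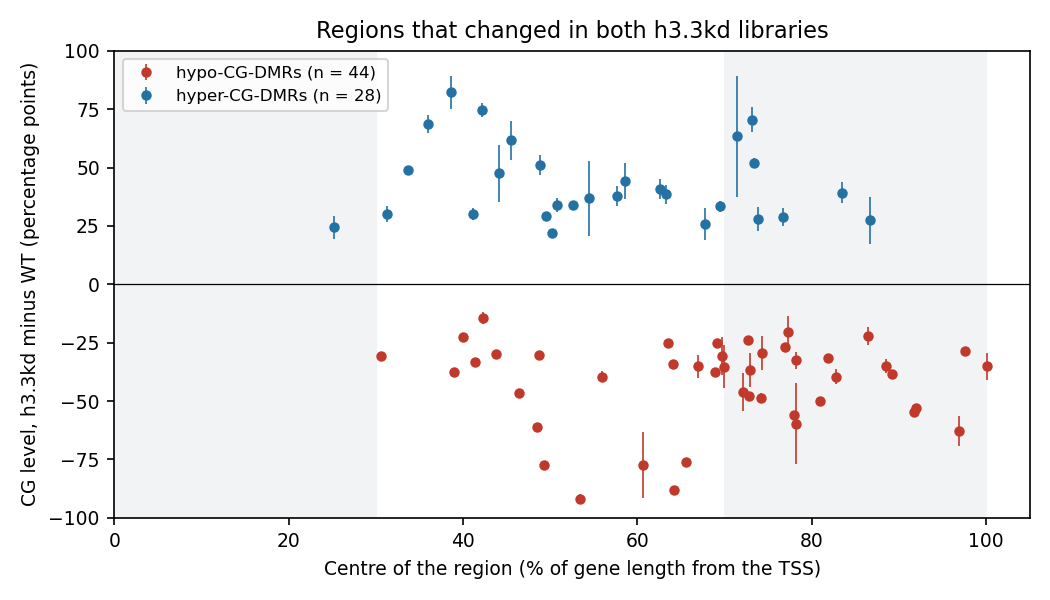
Difference in CG level, h3.3kd minus WT (y axis, percentage points, mean of 2 libraries with SD), of each hypo-CG-DMR (red, 44) and hyper-CG-DMR (blue, 28) in ribosomal protein genes, at the centre of the region along the gene (x axis, percent of gene length from the transcription start site). The first and last 30% are shaded. They hold 0 and 22 of the losses, and 1 and 7 of the gains, and the signs follow from how the regions were called.

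Most promoters of ribosomal protein genes were nearly unmethylated, as were most promoters of all genes. From 250 bp before to 50 bp after the start, the CG level was 2.09% ± 0.0684 in h3.3kd (SD, n = 2) and 2.77% in WT, against 5.98% ± 0.0695 in h3.3kd and 6.82% in WT over all genes. In WT 10 of 272 windows with at least 20 calls in every library (3.68%) reached 10%, against 8.96% of all windows. The median window was alike in WT, at 0.540% against 0.539% for all genes. Low promoter methylation was thus not particular to this set, and the pooled levels differed through a minority of windows. The telo box (AAACCCTA), known from promoters of plant translation genes, was found on either strand in 111 of 281 windows (39.5%), against 6.22% of all windows. A site II element (TGGGCC or TGGGCT, either strand; the first overlaps its own reverse complement in a palindrome) was found in 182 (64.8%), against 21.7%, and both motifs in 88 (31.3%), against 2.20%. By annotated location, the telo box was in 52.3% of 132 cytosolic and 12.8% of 39 organellar windows, and site II in 75.8% and 43.6%. Genes whose product holds the words ribosomal protein further on had a telo box in 25.4% and site II in 61.9%. For ribosome biogenesis genes the shares were 17.9% and 42.9%, so the motifs are not particular to this set. These are matches of letters and say nothing of binding. The 250 bases before AT5G15200 (S4 family), from the minus strand of chr5:4936430-4936679 in RefSeq TAIR10.1, are shown with the motifs in capitals, as the window free of other genes with the most matches.
AT5G15200: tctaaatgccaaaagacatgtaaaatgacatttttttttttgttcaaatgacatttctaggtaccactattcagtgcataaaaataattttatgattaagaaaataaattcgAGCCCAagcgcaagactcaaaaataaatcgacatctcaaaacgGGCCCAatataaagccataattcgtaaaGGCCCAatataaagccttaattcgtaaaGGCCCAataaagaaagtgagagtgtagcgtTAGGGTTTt
It holds 1 telo box and 4 site II elements, and its CG level was 0.826% and 1.37% in the h3.3kd libraries and 0.314% in WT, from 292 to 363 calls.

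Other genes of the ribosome behaved by their names as follows. In 63 genes whose product holds the words ribosomal protein further on, the CG level was 4.59% ± 0.228 in h3.3kd and 5.39% in WT (SD, n = 2). Of 62 tested, 6 (9.68%) were lower and 2 (3.23%) higher in both libraries at an FDR under 0.01, against 19.0% and 4.84% of all genes. With 10 points 1 was called, AT2G39590 (40S ribosomal protein S15a), at 15.6% and 10% in h3.3kd and 40.7% in WT. The 56 genes of ribosome biogenesis, which process ribosomal RNA and assemble the subunits, were more methylated, at 12.6% ± 0.354 in h3.3kd and 14.9% in WT. Of 54 tested, 12 (22.2%) were lower and 1 (1.85%) was higher, against 19.0% and 4.84% of all genes. With 10 points 2 were called: AT1G42440 (TSR1-like, pre-rRNA processing), at 35.0% and 31.2% in h3.3kd and 47.3% in WT, and AT3G22660 (rRNA processing), at 19.6% and 16.3% in h3.3kd and 30.6% in WT. A hypo-CG-DMR lay in 23 of the biogenesis genes (42.6%), against 37 of the 276 ribosomal protein genes (13.4%) and 34.4% of all genes. Biogenesis genes were also longer, with a median of 2334 bp, against 1591 bp for ribosomal protein genes and 2078 bp for all genes.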

How the data were processed

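BS-seq libraries of mature leaves (2 h3.3kd, 1 WT, grouped by genotype label) were used. Per the study's methods, identical reads were collapsed and mapped to TAIR10 with BS Seeker, whose version and settings are not given in the sources used here. In each library, the authors deposited the count of C and the count of T calls at each cytosine, without normalization. Lines of the same position were summed (1.23 to 1.25% of cytosines). The calls cover chromosomes 1 to 5, with 19.2 to 19.7 calls per cytosine.

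Levels were C/(C + T) over genes, 100-bp tiles or dyads, with Wilson intervals of 95% that cover counting error only. Two-sided Fisher's exact tests compared each h3.3kd library with WT on all genes or tiles, with Benjamini-Hochberg adjustment over all of them (Python 3.11.15, scipy 1.17.1, numba 0.67.0). limma 3.58.1 (R 4.3.3) was fitted as an alternative to log2((C + 0.5)/(T + 0.5)). The Fisher code was tested on simulated data. Predicted proteins were compared with blastp 2.17.0+. The genes named were those called, the 10 largest drops and 5 largest rises among genes with an FDR under 0.01 in both h3.3kd libraries, the 5 highest in WT, those with CHG of at least 5%, those with the longest regions, and families of the 3 largest drops; genes of the printed sequences, copies with differing levels and genes of other lists were named after their values were seen. The genes, lists and tests were chosen with earlier results of these data known.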

Additional observations from a re-analysis of the deposited data

How the results depend on the processing

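No paired analysis was possible because WT has a single library. The CG difference over gene bodies (-0.66 points) was -0.77 as a mean of site levels, -0.37 as an unweighted mean of genes, -0.55 in genes with CHG under 5% and -0.98 in coding sequence. It was -0.56 without the products of related families and -0.57 without AT3G28900. The last 2, and the counts on bases of a single gene, were added after seeing the data. The CHG difference (-0.0725) was -0.0449, -0.0254 and -0.00626 under the first 3 of these, and -0.0153 without AT3G28900. The CHH difference (-0.0178) was -0.00589 by sites and -0.0110 by genes.

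The 5′ difference (-0.0929) was -0.0659 by sites and -0.0634 with CHG under 5%, and the 3′ difference (-2.32) was -2.47 and -1.93 under the same settings and -1.95 without AT3G28900. Genes called lower (2) and higher (1) numbered 6 and 2 at 5 points, 0 and 0 at 20 points, and 0 and 0 with limma at FDR 0.05. By limma's unadjusted p, 21 of the 276 genes were lower and 26 higher at 0.05, against 2371 lower and 1571 higher of all 26970. Its count of 0 says nothing of stability, since on simulated data it recovered 0 of 200 genes changed by 15 points and Fisher's test 199. The simulation had counting error only, without variation between libraries, and changed only genes of intermediate CG level. The 199 therefore say nothing of how reliable the Fisher calls are in the real libraries. On bases of a single gene, 1 gene was lower and 1 higher. Genes with a hypo-CG-DMR (37) and a hyper-CG-DMR (25) numbered 18 and 11 at 40 points. The other settings tried kept the sign, and counts within 1.5 times.
Leaving out either h3.3kd library gave CG differences of -0.69 to -0.62 points, CHG -0.0778 to -0.0671, CHH -0.0224 to -0.0131, 5′ -0.107 to -0.0786 and 3′ -2.33 to -2.31. Genes called lower stayed at 2 and higher at 1 in number, genes with a hypo-CG-DMR numbered 43 to 50 and with a hyper-CG-DMR 29 to 31.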
